A study of Mus musculus with 12 samples.

Results

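Bone morphogenetic protein (BMP) signaling in the mouse abdominal aorta was followed through 10 genes: the ligands Bmp2, Bmp4 and Bmp6, the secreted antagonist Grem1, the receptors Bmpr1a and Bmpr2, the intracellular genes Smad9 and Smad6, and the target genes Id1 and Id3. They were chosen by symbol, and each symbol matched 1 row, so the 10 genes are 10 of the 55092 features in the table. The data are poly(A) RNA-Seq of 12 male mice in 4 groups of 3, with 1 library per mouse. All mice carried the floxed Ccn2 alleles (CCN2fl/fl) and all were given 5 doses of tamoxifen at 8 weeks of age, followed by 2 weeks without treatment. CCN2SMCΔ mice also carried Cre-ERT2 under the Myh11 promoter, which deletes Ccn2 in smooth muscle cells (SMCs), while the CCN2fl/fl controls had no Cre and other cell types kept the gene in both genotypes. Mini-osmotic pumps then delivered saline or angiotensin II (Ang II), a vasoconstrictor peptide, at 500 ng/kg/min for 7 days. The groups are CFS (CCN2fl/fl with saline), CSS (CCN2SMCΔ with saline), CFA (CCN2fl/fl with Ang II) and CSA (CCN2SMCΔ with Ang II). Values of single mice are given in the order 68, 69, 70 for CFS, 54, 55, 56 for CSS, 71, 72, 74 for CFA and 01, 02, 03 for CSA. Levels are FPKM as the authors deposited them, the fragments of a gene scaled to the length of the gene and between libraries. The scaling between libraries in these values is one that makes the median log ratio the same in all of them.

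BMPs are secreted dimers of the TGF-β superfamily. They bind pairs of type I receptors (such as Bmpr1a) and type II receptors (such as Bmpr2), which phosphorylate the receptor Smads of the BMP branch, among them the protein of Smad9. These enter the nucleus with Smad4 and switch on targets, of which the Id genes, inhibitors of helix-loop-helix transcription factors, respond most directly. The same signal switches on its own brakes, the inhibitory Smad6 inside the cell, while antagonists such as gremlin (Grem1) capture BMP ligands outside it. In the vessel wall the pathway acts in endothelium and in SMCs, and loss of Bmpr2 or Smad9 is known from inherited pulmonary arterial hypertension.

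On GRCm38 with the GENCODE M21 annotation, all 10 are protein-coding genes. The ligands are Bmp2 (ENSMUSG00000027358) at chr2:133552159-133562885, Bmp4 (ENSMUSG00000021835) at chr14:46383520-46390669 and Bmp6 (ENSMUSG00000039004) at chr13:38345107-38500302. Grem1 (ENSMUSG00000074934) lies at chr2:113746164-113758646. The receptors are Bmpr1a (ENSMUSG00000021796) at chr14:34410734-34503341 and Bmpr2 (ENSMUSG00000067336) at chr1:59763400-59879014. The Smads are Smad9 (ENSMUSG00000027796) at chr3:54755582-54801257 and Smad6 (ENSMUSG00000036867) at chr9:63953076-64022059. Id1 (ENSMUSG00000042745) lies at chr2:152736251-152737410 and Id3 (ENSMUSG00000007872) at chr4:136143497-136145755. Bmp4, Bmp6 and Bmpr1a share 3.96%, 5.74% and 4.57% of their exonic bases with a gene on the opposite strand, and the strand setting of the counting is not given in the sources used here. The other genes among the 10 share none.

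Promoter sequences were available for 8 of the 10 genes from RefSeq (GRCm38.p6), each reaching from 250 bases before to 50 bases after a start site. Smads of the BMP branch bind GC-rich elements such as GGCGCC, and the shorter Smad element is CAGAC. Both were searched on both strands (GGCGCC reads the same on each), and no match of one overlapped a match of the other. GGCGCC was in 4 of the 8 windows, those of Bmpr1a, Bmpr2, Grem1 and Smad9, and in 11.9% of 32851 promoter windows of this length. The share of G and C in the 8 windows was 59.3% (Bmpr2) to 79.3% (Bmpr1a). The windows behind the 11.9% were not matched for this share, so no enrichment is read from it. CAGAC was in 3 of the 8, those of Bmp6, Grem1 and Id3, and in 49.6% of all windows. The 250 bases before the start site are printed for 3 of the genes that changed under Ang II, 2 of them lower and 1 higher in CSA, with GGCGCC in capitals. They are Smad9 (chr3:54755332-54755581, plus strand), Bmpr1a (chr14:34502547-34502796, minus strand, inside the annotated span of the gene) and Grem1 (chr2:113758649-113758898, minus strand), each 5′ to 3′ along the gene.
Smad9: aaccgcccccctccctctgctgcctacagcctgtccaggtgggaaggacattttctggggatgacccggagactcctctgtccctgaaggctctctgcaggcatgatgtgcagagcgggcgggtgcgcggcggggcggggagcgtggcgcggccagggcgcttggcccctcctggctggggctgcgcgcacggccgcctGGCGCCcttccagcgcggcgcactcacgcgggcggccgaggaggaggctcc
Bmpr1a: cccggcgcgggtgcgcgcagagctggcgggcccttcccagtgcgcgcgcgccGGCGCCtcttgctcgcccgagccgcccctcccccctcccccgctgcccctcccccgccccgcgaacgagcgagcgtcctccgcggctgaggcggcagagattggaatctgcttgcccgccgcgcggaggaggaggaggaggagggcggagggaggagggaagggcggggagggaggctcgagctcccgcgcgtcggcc
Grem1: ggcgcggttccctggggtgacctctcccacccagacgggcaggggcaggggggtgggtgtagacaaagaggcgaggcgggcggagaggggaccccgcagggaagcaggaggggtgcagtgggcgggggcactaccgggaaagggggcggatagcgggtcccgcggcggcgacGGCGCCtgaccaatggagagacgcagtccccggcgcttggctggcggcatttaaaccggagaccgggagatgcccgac
The match starts 51 bases before the start site in Smad9, 198 bases before it in Bmpr1a and 78 bases before it in Grem1. Of the windows with the element, those of Smad9 and Bmpr1a belong to genes lower in CSA than in CFA and that of Grem1 to a gene that was higher. Bmpr2, whose window also holds it, did not pass in that comparison. The windows of Smad6, Bmp4 and Bmp6, which were lower, and of Id3, which did not pass, lack it. Whether the element has a part in these changes was not tested.

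Fragments recovered from the values numbered 14558580 (CSA mouse 03) to 23107811 (CFA mouse 71) per library. Ccn2, the targeted gene, stood at 709.5, 1108 and 480.1 FPKM in CFS, 436, 639.9 and 587 FPKM in CSS, 1013, 1105 and 564 FPKM in CFA, and 255, 331 and 399 FPKM in CSA. It was lower in every CSA mouse than in any CFA mouse (log2 fold change -1.41, adjusted p = 0.00622 by limma), and CSS and CFS overlapped (-0.40, adjusted p = 1). Ccn2 shares 23.2% of its exonic bases with a gene on the opposite strand. Smooth muscle markers summed to between 5699 and 10561 FPKM in the 9 mice of CFS, CSS and CFA, so the label of the tissue holds there, and to between 823 and 977 FPKM in CSA. Of the libraries, CSA mouse 03 and CFS mouse 69 lay farthest from the others of their group over the 10 genes. CSA mouse 03 lay 1.21 and 1.20 (root mean square difference of log2 values over the tested genes) from CSA mice 01 and 02, which lay 0.505 from each other, and over the 10 genes it lay at least 1.17 from either, against 0.205 between those mice. CFS mouse 69 had a summed level of endothelial markers of 166.7 FPKM, against 545 FPKM in each of the other CFS mice, and over the 10 genes it lay 1.05 and 0.953 from them, against 0.255 between those. By the same measure over the 10 genes, CFA mouse 72 lay 0.766 and 0.771 from the other CFA mice, against 0.298 between those, and CSS mouse 55 lay 0.654 and 0.650 from the other CSS mice, against 0.253. Some values are given again without one of these mice.

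Under Ang II, 5 of the 10 genes were lower and 1 was higher in CSA than in CFA, the comparison of genotype under Ang II. Bmp6 fell 7.52-fold, Smad9 fell 4.50-fold, Smad6 fell 4.09-fold, Bmpr1a fell 2.35-fold and Bmp4 fell 2.28-fold, while Grem1 rose 18.6-fold. For Grem1 and Smad9 the smallest changes over the alternatives were 2.58 and -1.51 on the log2 scale. Bmp2, Bmpr2, Id1 and Id3 did not pass the test. Folds are on the scale of log2(FPKM + 0.1), which understates the change of a low gene, and a gene passes at an adjusted p under 0.05 in limma over all 14676 genes tested. Of all tested genes 40.7% passed in this comparison, 19.5% higher and 21.2% lower (2864 and 3114 genes), so single passes are common, and scaling to fragment totals instead moves the split of all genes to 3736 higher and 2487 lower. The share of all genes passing was 47.0% without CSA mouse 03 and 57.4% with array weights, a fit that gives less weight to libraries that fit poorly. With an absolute log2 fold change over 1.5 as well, 4 of the 10 (Bmp6, Smad6, Smad9 and Grem1) passed beside 17.2% of all genes. The groups did not overlap for 7 of the 10, 6 lower and 1 higher, beside 48.5% of all genes (25.1% lower and 23.4% higher). The median log2 fold change was -0.97 over the 10 genes and -0.037 over all genes. Grem1 reached 1 FPKM, the filter on low values, only in the 3 CSA mice, so it could not have been tested without being high there.

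**Figure D1:**
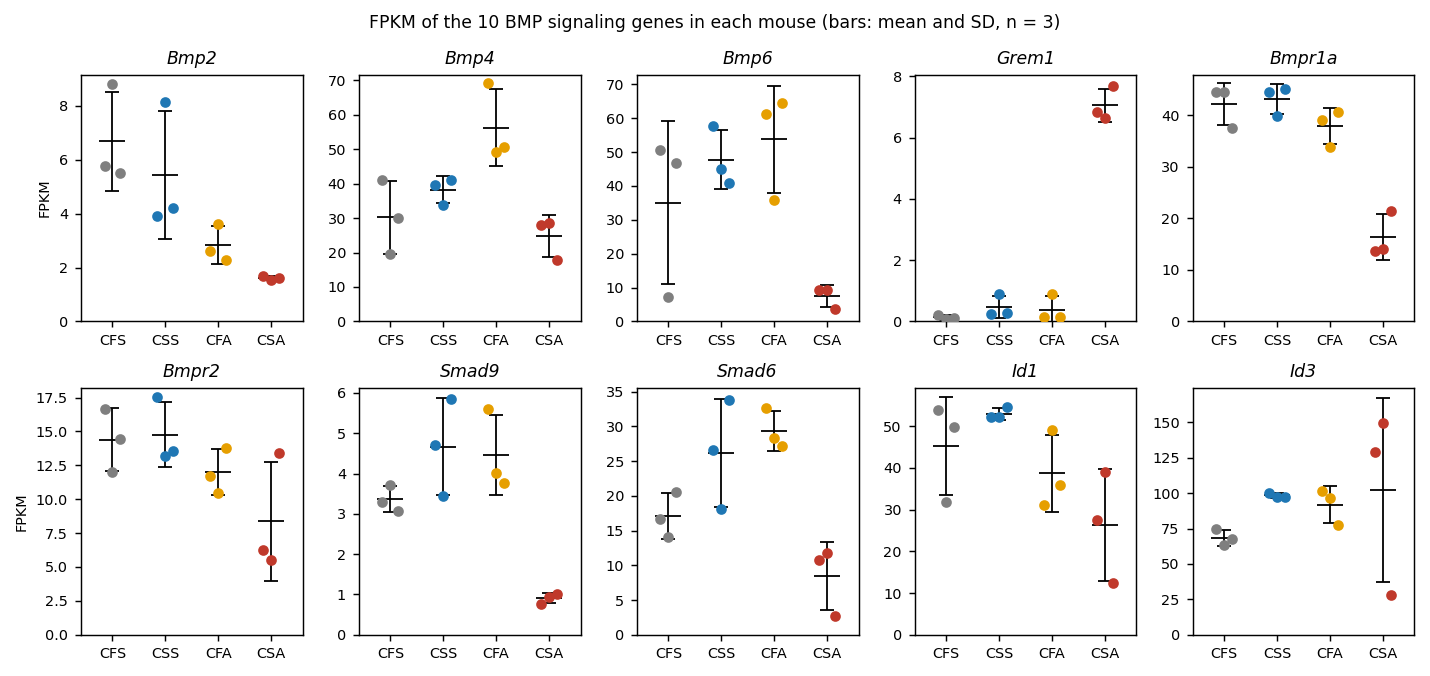
FPKM of each of the 10 genes (vertical axes, linear, 1 panel per gene) in the 4 groups, with 1 point per mouse and bars for the mean and SD of 3 mice. The CSA points lie below those of the other groups for Smad9, Smad6 and Bmpr1a and above them for Grem1, while 1 CSA mouse (03) lies far from the other CSA mice for Id3 and Bmpr2.

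Among the ligands, Bmp4 and Bmp6 carried most of the transcript, and Bmp2 little outside CFS mouse 69. Bmp6, a ligand made by endothelium among other cells and known for its part in iron balance, stood at 50.7, 7.29 and 46.9 FPKM in CFS mice 68, 69 and 70. It stood at 57.6, 44.9 and 40.8 FPKM in CSS, at 61.2, 35.7 and 64.6 FPKM in CFA, and at 9.32, 9.34 and 3.65 FPKM in CSA. All 3 CSA mice were below every CFA and CSS mouse, and the only other low value was that of CFS mouse 69, which lay within the CSA range. Bmp6 fell in CSA against CFA by 2.91 on the log2 scale (SE 0.65, 95% interval -4.35 to -1.47, adjusted p = 0.00433) and against CSS by 2.77 (adjusted p = 0.00486). Without CSA mouse 03 the change against CFA was -2.47 (adjusted p = 0.0166, from 4.86e-05 to 0.0191 over the alternatives).

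Bmp4, a ligand made by many mesenchymal and endothelial cells, stood at 40.9, 19.6 and 30.1 FPKM in CFS and at 39.7, 33.8 and 41.1 FPKM in CSS. It stood at 69.1, 49.1 and 50.6 FPKM in CFA and at 28.0, 28.7 and 17.9 FPKM in CSA. The CFA mice held the highest values of all 12, and CSA overlapped CFS. Its fall in CSA against CFA was 1.19 on the log2 scale (SE 0.27, interval -1.78 to -0.59, adjusted p = 0.00474), and against CSS the value was -0.64 (interval -1.24 to -0.05, adjusted p = 0.0731), which did not pass although the groups did not overlap.

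Bmp2, a ligand best known from bone formation and the lowest of these 3 ligands in every mouse but CFS mouse 69, stood at 5.77, 8.80 and 5.50 FPKM in CFS and at 3.92, 8.15 and 4.201 FPKM in CSS. It stood at 2.62, 3.63 and 2.27 FPKM in CFA and at 1.70, 1.55 and 1.62 FPKM in CSA. Both Ang II groups lay below both saline groups, and CSA lay below CFA without overlap. The value for CSA against CFA was -0.74 (SE 0.29, adjusted p = 0.0599) and did not pass, except with array weights (adjusted p = 0.0385, up to 0.190 over the alternatives), and for CSA against CSS Bmp2 fell by 1.60 (adjusted p = 0.000911).

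Grem1, whose protein gremlin binds BMP2, BMP4 and other BMPs and keeps them from their receptors, was the only one of the 10 that rose with all mice included. It stood at 0.209, 0.0644 and 0.126 FPKM in CFS, at 0.246, 0.898 and 0.288 FPKM in CSS and at 0.144, 0.886 and 0.136 FPKM in CFA. It stood at 6.84, 6.65 and 7.68 FPKM in CSA, which is 488 to 585 fragments per library beside 5 to 78 in each of the other mice. No CSA mouse overlapped any other mouse, and in the other groups single mice (CSS mouse 55 and CFA mouse 72) stood near 0.89 FPKM. Grem1 rose by 4.21 against CFA (SE 0.59, interval 2.92 to 5.51, adjusted p = 0.000208) and by 3.80 against CSS (adjusted p = 0.000330). Without CFA mouse 72 the value against CFA was 4.89. Over all alternatives the lowest value was 2.58 against CFA and 2.47 against CSS, and Grem1 passed wherever it was tested in these comparisons. In the main fit Grem1 met the filter only through the CSA mice, so being tested depended on its being high there. With 1 CSA mouse left out, Grem1 no longer met the filter and had no test.

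The summed level of the 14 BMP and GDF ligands in the list, which FPKM allows since it is per length, was 40.6 to 149 FPKM in the 9 mice of CFS, CSS and CFA and 26.8 to 47.7 FPKM in CSA. CFS mouse 69 was the lowest of those 9 mice, and the next lowest had 93.8 FPKM. Bmp2, Bmp4 and Bmp6 together made 82.9% to 89.3% of that sum in every mouse. The share of Bmp6 was 13.6% to 20.3% in CSA and 18.0% in CFS mouse 69, and at least 34.8% in the other mice. The share of Bmp4 was 60.1% to 66.8% in CSA and 32.1% to 48.2% elsewhere. That of Bmp2 was 21.7% in CFS mouse 69 and 1.67% to 8.04% in the other mice. The ratio of Bmp4 to Grem1 FPKM was 2.33 to 4.31 in CSA and 37.7 to 480 elsewhere. These ratios are descriptions with no test.

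Of the receptors, Bmpr1a, a type I receptor, stood at 44.5, 44.4 and 37.5 FPKM in CFS, at 44.6, 39.8 and 45.1 FPKM in CSS and at 39.1, 33.9 and 40.7 FPKM in CFA. It stood at 13.8, 13.98 and 21.5 FPKM in CSA. The first 3 groups overlapped and the CSA mice lay below all of them. Bmpr1a fell by 1.23 against CFA (SE 0.17, interval -1.61 to -0.85, adjusted p = 0.000214) and by 1.42 against CSS (adjusted p = 6.02e-05).

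Bmpr2, the type II receptor, stood at 16.7, 12.01 and 14.5 FPKM in CFS and at 17.5, 13.2 and 13.5 FPKM in CSS. It stood at 11.7, 10.4 and 13.8 FPKM in CFA and at 6.22, 5.48 and 13.4 FPKM in CSA. CSA mice 01 and 02 were below every other mouse, and CSA mouse 03 lay among the other groups. The value against CFA was -0.62 (SE 0.29, interval -1.26 to 0.02, adjusted p = 0.113), and without CSA mouse 03 it was -1.02 and passed (adjusted p = 0.000868, from 0.000176 to 0.330 over the alternatives). Against CSS Bmpr2 fell by 0.92 (adjusted p = 0.0236), and by 1.31 without that mouse, while without CSS mouse 54, CSA mouse 01 or CSA mouse 02 it did not pass (adjusted p = 0.0873, 0.0773 and 0.0877). FPKM of Bmpr1a was 1.60 to 2.55 times that of Bmpr2 in CSA and 2.54 to 3.70 times elsewhere.

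Smad9, which encodes a receptor Smad of the BMP branch and is also induced by BMP, had the smallest adjusted p of the 10 genes in CSA against CFA. It stood at 3.31, 3.71 and 3.07 FPKM in CFS, at 4.70, 3.45 and 5.86 FPKM in CSS and at 5.60, 4.01 and 3.77 FPKM in CFA. It stood at 0.771, 0.931 and 1.01 FPKM in CSA, from 83 to 106 fragments per library. All 3 CSA mice, mouse 03 included, were below every other mouse. Smad9 fell by 2.17 against CFA (SE 0.22, interval -2.65 to -1.69, adjusted p = 2.14e-05) and by 2.22 against CSS (adjusted p = 1.28e-05). Over the alternatives the value ranged from -2.37 to -1.51 against CFA and from -2.42 to -1.55 against CSS.

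Smad6, the inhibitory Smad that BMP signaling induces and that blocks it in turn, stood at 16.7, 14.1 and 20.6 FPKM in CFS and at 26.6, 18.2 and 33.8 FPKM in CSS. It stood at 32.6, 28.3 and 27.2 FPKM in CFA and at 10.8, 11.7 and 2.77 FPKM in CSA. The CSA mice were the 3 lowest of the 12, with CSA mouse 03 well below the other CSA mice. Smad6 fell by 2.03 against CFA (SE 0.46, interval -3.04 to -1.03, adjusted p = 0.00438) and by 1.83 against CSS (adjusted p = 0.00682). Without CSA mouse 03 it fell by 1.37 against CFA and by 1.17 against CSS, and passed in both (adjusted p = 0.000873 and 0.00197, over the alternatives 0.000289 to 0.0314 and 0.000641 to 0.0462).

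Id1 and Id3, classic direct BMP targets, did not pass in CSA against CFA with all mice included. Id1 stood at 54.01, 31.8 and 49.8 FPKM in CFS and at 52.1, 52.2 and 54.5 FPKM in CSS. It stood at 31.2, 49.0 and 35.9 FPKM in CFA and at 27.6, 39.0 and 12.4 FPKM in CSA. CFA and CSA overlapped, and each CSA mouse was below each CSS mouse. The value against CFA was -0.68 (SE 0.36, interval -1.47 to 0.12, adjusted p = 0.160). It was -0.21 without CSA mouse 03 and -1.03 without CSA mouse 02, where it passed (adjusted p = 0.0356, up to 0.947 over the alternatives). Against CSS Id1 fell by 1.15 (adjusted p = 0.0222), and by 0.69 without CSA mouse 03 (adjusted p = 0.0405, from 0.00512 to 0.0641 over the alternatives), and it did not pass without CSS mouse 54, 55 or 56 (0.0539, 0.0528 and 0.0595).

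Id3 had the highest FPKM of the 10 genes in each of the 12 mice. It stood at 74.5, 63.3 and 67.7 FPKM in CFS, at 100.4, 97.6 and 97.1 FPKM in CSS and at 101.6, 96.9 and 77.4 FPKM in CFA. It stood at 129.1, 149.8 and 28.4 FPKM in CSA, so the CSA group held both the highest values and the lowest value of the 12 mice. Over the 3 CSA mice the value against CFA was -0.16 (SE 0.48, interval -1.22 to 0.91, adjusted p = 0.822). Without CSA mouse 03 the direction turned and Id3 was higher in CSA, by 0.61 against CFA (adjusted p = 0.00331, up to 0.9995 over the alternatives) and by 0.50 against CSS (adjusted p = 0.00845, up to 0.906). FPKM of Id3 was 4.69, 3.84 and 2.28 times that of Id1 in CSA mice 01, 02 and 03, and 1.36 to 3.25 times elsewhere.

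Under saline the genotypes were compared as CSS against CFS. None of the 10 genes passed, with 0 at an unadjusted p under 0.05 in limma, beside 0.0204% of all genes with the adjusted p and 6.3% unadjusted. All but Bmp2 had a value above 0. The largest were Grem1 at 1.18 (interval -0.11 to 2.48, adjusted p = 0.825), Bmp6 at 0.86 (interval -0.58 to 2.30) and Smad6 at 0.58 (interval -0.42 to 1.59). The value of Bmp6 rested on CFS mouse 69, without which it was -0.045, and that of Grem1 was 0.70 without CSS mouse 55. The groups did not overlap for 2 of the 10, Id3 and Grem1, both higher in CSS, beside 20.4% of all genes (11.1% higher).

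Ang II was compared with saline in CCN2fl/fl mice as CFA against CFS. None of the 10 passed after adjustment, beside 0.0341% of all genes, and 2 of the 10 had an unadjusted p under 0.05 in limma, beside 9.42%. These were Bmp2 at -1.20 (SE 0.29, adjusted p = 0.165) and Bmp4 at 0.94 (SE 0.27, adjusted p = 0.239). The groups did not overlap for 5 of the 10, with Bmp2 lower and Bmp4, Smad6, Smad9 and Id3 higher in CFA, beside 20.2% of all genes (10.8% lower and 9.44% higher). Bmp6 was at 1.0025 (adjusted p = 0.721), and at 0.094 without CFS mouse 69. Grem1 was at 0.77 (adjusted p = 0.796), and at 0.091 without CFA mouse 72. With array weights Bmp2 and Bmp4 passed (adjusted p = 0.0432 and 0.0369, up to 0.461 and 0.608 over the alternatives), beside 3.41% of all genes in that fit.

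In CCN2SMCΔ mice, Ang II against saline (CSA against CSS) passed for 8 of the 10 genes, 7 lower and 1 higher, beside 46.2% of all genes (23.9% lower and 22.3% higher). The genes that did not pass were Bmp4 and Id3. The groups did not overlap for 8 of the 10, 7 lower and 1 higher, beside 55.4% of all genes (29.1% lower and 26.3% higher), and the median log2 fold change was -1.29 over the 10 and -0.059 over all genes. The comparison shares the CSA mice with that of CSA against CFA, so the values in the 2 comparisons are not separate evidence.

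**Figure D2:**
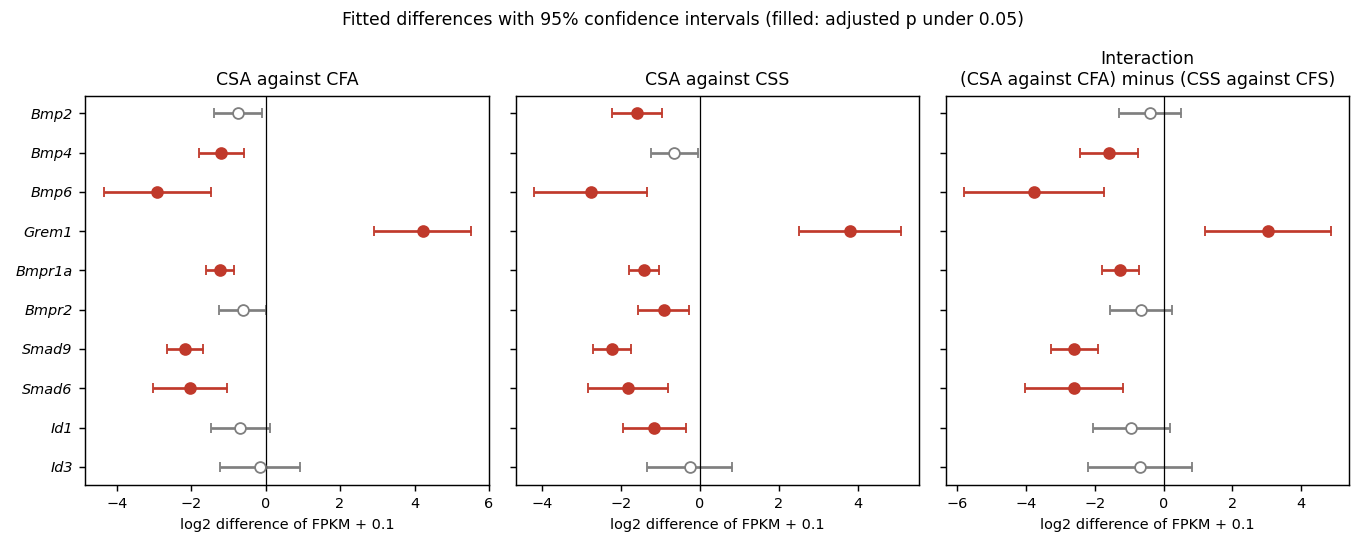
Fitted log2 differences of FPKM + 0.1 (horizontal axes) of the 10 genes for CSA against CFA, CSA against CSS and the interaction, with 95% confidence intervals not adjusted for the number of genes, filled where the adjusted p is under 0.05. Smad9 and Bmpr1a have the narrowest intervals of the genes that fell, and Grem1 is the only one to the right of 0.

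Whether the effect of genotype differed between Ang II and saline was tested by the interaction, (CSA - CFA) - (CSS - CFS). It passed for 6 of the 10 genes, 5 negative and 1 positive, beside 26.4% of all genes (13.7% negative and 12.8% positive). Of the ligands, Bmp6 had an interaction of -3.77 (SE 0.92, adjusted p = 0.0116) and Bmp4 of -1.59 (SE 0.38, adjusted p = 0.0109). The interaction of Grem1, which met the filter only through the CSA mice, was 3.03 (SE 0.83, adjusted p = 0.0203). Bmpr1a had one of -1.27 (SE 0.24, adjusted p = 0.00327). For Smad6 it was -2.62 (SE 0.64, adjusted p = 0.0122) and for Smad9 -2.60 (SE 0.31, adjusted p = 0.000209). Bmp2 (-0.40), Bmpr2 (-0.66), Id1 (-0.94) and Id3 (-0.68) did not pass, with adjusted p from 0.208 to 0.514. Bmpr2 passed at -1.05 without CSA mouse 03, beside 34.3% of all genes (adjusted p = 0.00607, from 0.00326 to 0.466 over the alternatives). The value of Bmp6 was -2.87 without CFS mouse 69 and -2.42 without both CSA mouse 03 and CFS mouse 69, and without CSA mouse 03 those of Smad6 and Id1 were -1.95 and -0.48. Grem1 did not pass without CSS mouse 54, CSS mouse 56 or CFA mouse 71 (adjusted p = 0.0516, 0.0518 and 0.0511), and was 3.71 without CFA mouse 72. For Grem1 and Smad9 the smallest interactions over the alternatives were 2.22 and -1.87.

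The order of the group means differed from gene to gene. For Smad9 it was CSS, CFA, CFS and CSA, where CSS and CFA overlapped and the later neighbours did not. For Bmp2 it was CFS, CSS, CFA and CSA, where only CFS and CSS overlapped. For Bmp4 it was CFA, CSS, CFS and CSA, where CFA and CSS were the only neighbours that did not overlap. Bmpr1a had CSA apart from 3 overlapping groups. Smad6 had CSA apart at the bottom, below CFA, CSS and CFS in that order, where neighbours overlapped but CFA and CFS did not. Grem1 had CSA apart at the top above 3 groups whose neighbours overlapped, and for Bmp6, Bmpr2 and Id1 all neighbours overlapped. For Id3 the CSA range covered those of the other groups, and among the others CFS lay below CSS and CFA without overlap. These orders are descriptions with no test.

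The rest of the pathway was followed in 5 lists that hold 59 further genes, of which 45 were tested. In CSA against CFA, 27 of the 45 passed, 4 higher and 23 lower, which is 60.0% beside 40.7% of all genes, with a median of -0.61. Without CSA mouse 03, 27 of 44 passed, 2 higher and 25 lower, beside 47.0% of all genes. In CSA against CSS 32 passed (6 higher and 26 lower), beside 46.2% of all genes, and in the interaction 23 passed (3 higher and 20 lower), beside 26.4%. Of the 45, Gdf6 and Runx2 met the filter only with the CSA mice. Under saline, and for Ang II in CCN2fl/fl mice, 0 passed in limma after adjustment, with 5 and 4 at an unadjusted p under 0.05 beside 6.3% and 9.42% of all genes. The counts by role below are for CSA against CFA and include the 10 genes.

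Of the 14 ligands 6 were tested and, beside 21.2% of all genes, 4 were lower. Besides Bmp4 and Bmp6 these were Gdf7, at 9.60 ± 3.33 FPKM in CFA and 0.763 ± 0.798 FPKM in CSA (SD, n = 3; log2 fold change -4.18, limma adjusted p = 0.00350), and Bmp3, a ligand that opposes other BMPs, at 3.77 ± 0.272 and 0.234 ± 0.104 FPKM (-3.59, limma adjusted p = 1.86e-06). Gdf7 was listed at 0 in CSA mouse 03, without which its value was -3.01 (limma adjusted p = 0.00385). Of the 11 receptors and co-receptors, all tested, 5 were lower, beside 21.2% of all genes lower and 40.7% passing in either direction. Without CSA mouse 03, 8 were lower, as Bmpr2, Acvr1 and Acvr2a passed as well. In that fit 3620 of 14066 genes were lower, and 47.0% passed in either direction. The co-receptor Hfe2 (hemojuvelin) fell by 2.55, the type I receptor Bmpr1b fell by 1.05, and the co-receptors Rgma and Rgmb had log2 fold changes of -1.0036 and -0.71, the last named after its value was seen. Acvrl1 and Eng, the receptor and co-receptor of endothelium for BMP9, had values of -0.31 and -0.24 and did not pass (adjusted p = 0.190 and 0.406), and were named after their values were seen.

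Of the 18 extracellular antagonists and binders 14 were tested, and 3 were higher and 6 lower, beside 19.5% and 21.2% of all genes. The 3 that rose were Grem1, Bmper at 3.08 ± 0.0679 FPKM in CFA and 13.04 ± 1.62 FPKM in CSA (SD, n = 3; log2 fold change 2.04), and the activin and BMP binder Fst at 6.20 ± 2.31 and 15.2 ± 4.25 FPKM (1.31), the latter 2 named after their values were seen. The 6 that fell included Nog (noggin), which fell by 2.58, Vwc2, which fell by 2.39, and Fstl3, which fell by 2.08. Nog was listed at 0 in CSA mouse 03, without which its value was -1.77 (limma adjusted p = 0.00141), and Fst did not pass without that mouse (1.12, limma adjusted p = 0.0614). Among the 16 Smads and intracellular modulators, 9 were lower and 1 was higher, beside 21.2% and 19.5% of all genes. Bambi, a pseudoreceptor induced by BMP and TGF-β, fell by 1.35, Zfp423, a zinc finger partner of Smads, fell by 1.11, and Tob1 fell by 1.07. Smad1 was higher by 0.45 (adjusted p = 0.0313, named after its value was seen), and Smad5 (-0.14), also named after its value was seen, did not pass (adjusted p = 0.312).

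Of the 14 BMP targets 12 were tested, and 7 were lower and 1 higher, beside 21.2% and 19.5% of all genes. Msx1 fell by 1.90 and Bambi, Smad6 and Smad9 fell as above. Runx2, the transcription factor of bone formation, rose by 2.53, from 0.353 ± 0.0778 FPKM in CFA to 2.53 ± 0.499 FPKM in CSA (SD, n = 3), and like Grem1 it met the filter only through the 3 CSA mice, so it had to be high there to be tested. Id2 and Id4, the relatives of Id1 and Id3, fell as well, with log2 fold changes of -0.77 and -1.298 (adjusted p = 0.00337 and 0.00240), named here after their values were seen.

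**Figure D3:**
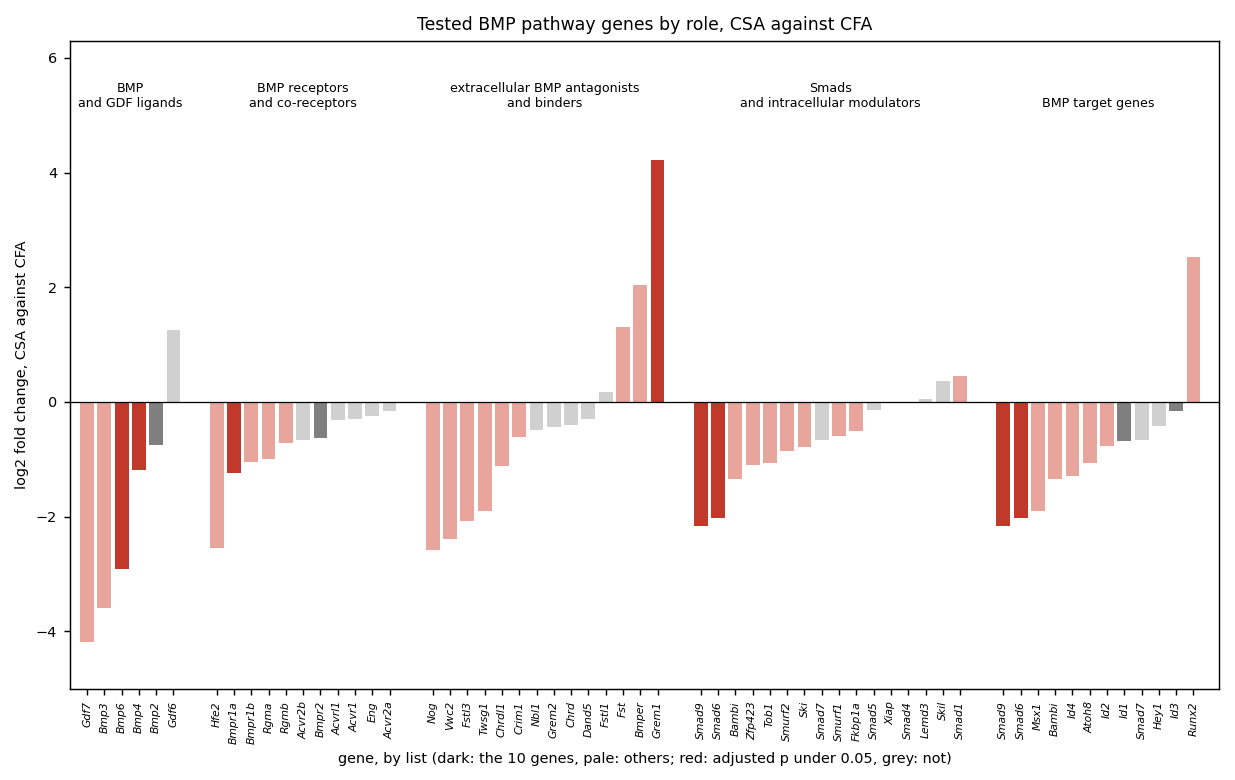
Log2 fold change of FPKM + 0.1 for CSA against CFA (vertical axis) of the tested genes of the 5 BMP lists, ordered within each list, with the 10 genes in dark and other genes in pale shades, red at an adjusted p under 0.05 and grey otherwise. Smad6, Smad7, Smad9 and Bambi appear in both of the right-hand lists, and the antagonists include both the largest rise (Grem1, 4.21) and falls beyond -2 (Nog, Vwc2 and Fstl3).

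These are whole-tissue libraries, in which fewer cells of a type and less RNA per cell cannot be told apart. Cell type markers moved with CSA, in a comparison where 40.7% of all genes passed. All 10 smooth muscle markers fell in CSA against CFA, with Myh11 at 718 ± 19.8 FPKM in CFA and 39.9 ± 5.86 FPKM in CSA (SD, n = 3). Of 10 macrophage markers 9 rose and 1 fell (8 and 1 without CSA mouse 03), and their sum was 283 to 727 FPKM in the 9 mice of CFS, CSS and CFA and 2368 to 2539 FPKM in CSA, with Cd68 at 14.1 ± 8.63 FPKM in CFA and 104 ± 5.76 FPKM in CSA. All 7 tested neutrophil markers and all 8 T cell markers rose, as did 3 of the 4 tested B cell markers, but 4, 8 and 3 of these tested markers, and 1 of the macrophage markers, met the filter only with the CSA mice, so their being tested depended on those mice. The neutrophil sum was 3.75 to 28.0 FPKM outside CSA and 519 to 566 FPKM in CSA, the T cell sum 0.425 to 4.32 FPKM and 31.6 to 44.4 FPKM, and the B cell sum 7.67 to 20.9 FPKM and 44.9 to 63.1 FPKM. S100a8, a neutrophil marker, was at 2.31 to 4.89 FPKM in CFA and 114 to 156 FPKM in CSA, and the T cell marker Cd3e at 0.0675 to 0.254 and 1.44 to 4.35 FPKM. The B cell marker Cd79a was listed at 0 in CSA mouse 03, as was the skeletal muscle marker Acta1. Of 10 fibroblast markers 4 rose and 3 fell, with a sum of 3012 to 4334 FPKM outside CSA and 5413 to 6387 FPKM in CSA, and Pdgfra was at 20.1 ± 4.42 FPKM in CFA and 26.5 ± 7.90 FPKM in CSA.

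Beside Bmp6 and Smad6, the endothelial markers summed to 313 to 611 FPKM in CFA, 449 to 591 FPKM in CSS and 194 to 264 FPKM in CSA. Of 12 markers 2 rose and 3 fell in CSA against CFA, near the share of all genes that passed (40.7%, with 19.5% higher and 21.2% lower). Pecam1 stood at 131, 75.9 and 187 FPKM in CFA and at 31.3, 29.4 and 43.5 FPKM in CSA. The markers did not move as one, since Pecam1, Vwf and Tek fell (-1.84, -2.36 and -1.89), Emcn and Robo4 rose (1.56 and 1.06) and the other 7, Cdh5 and Erg among them, did not pass, although without CSA mouse 03 Erg was lower (-0.60, adjusted p = 0.00551). All of these but Pecam1 were named after their values were seen. CFS mouse 69, where Bmp6 was 7.29 FPKM, had 38.3 FPKM of Pecam1, against 199 and 188 FPKM in the other CFS mice. Not every endothelial marker differed so among the CFS mice, since Erg lay between 26.7 and 32.7 FPKM in that group. Smad6 in CFS mouse 69 was 14.1 FPKM, the lowest CFS value, and Smad9 was 3.71 FPKM, the highest. Beside Grem1, CFA mouse 72 had both the highest macrophage sum outside CSA (727 FPKM) and the highest Grem1 in CFA (0.886 FPKM). That mouse also had the highest neutrophil and B cell sums outside CSA (28.0 and 20.9 FPKM). CSS mouse 55, with a Grem1 of 0.898 FPKM, had a macrophage sum of 369.8 FPKM, and neutrophil and B cell sums of 4.33 and 14.8 FPKM. Adipocyte markers summed to 52.6 to 524 FPKM outside CSA and 13.2 to 55.8 FPKM in CSA, with 5 of 8 lower, and Adipoq, which did not pass, was at 44.3 ± 21.5 FPKM in CFA and 14.1 ± 8.46 FPKM in CSA (SD, n = 3). Skeletal muscle markers summed to 155 FPKM in CFS mouse 68 and 244.6 FPKM in CSS mouse 55 and to 2.65 to 4.92 FPKM in the other mice. Schwann and neuronal markers summed to 9.77 to 31.4 FPKM outside CSA and 29.1 to 33.1 FPKM in CSA. The part of these markers in the results for the 10 genes was not tested.

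**Figure D4:**
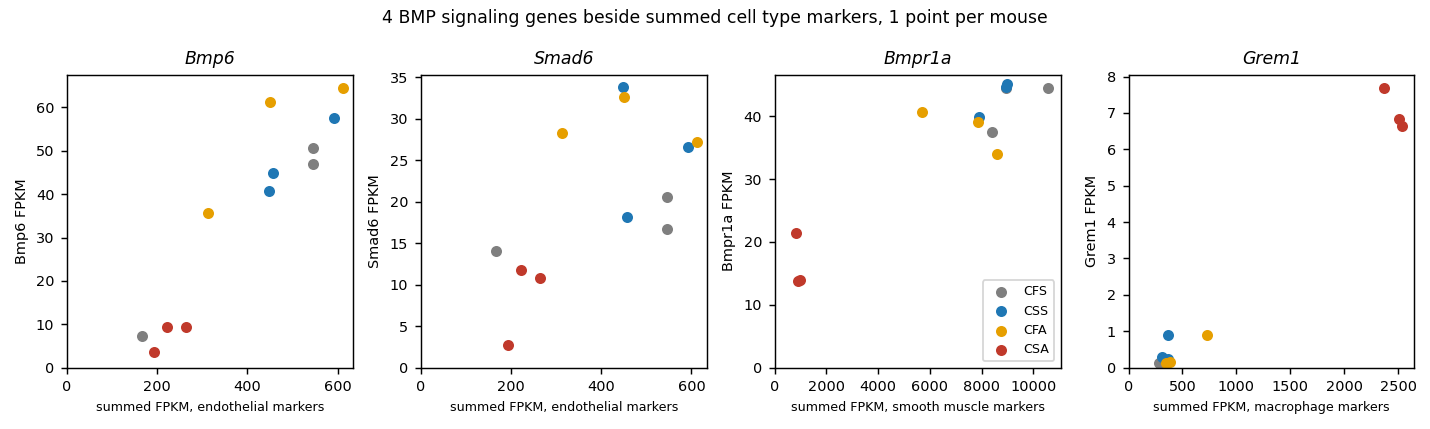
FPKM of Bmp6, Smad6, Bmpr1a and Grem1 (vertical axes) against the summed FPKM of a marker list (horizontal axes: endothelial for Bmp6 and Smad6, smooth muscle for Bmpr1a, macrophage for Grem1), with 1 point per mouse, colored by group, all axes linear from 0. The CSA mice lie at the low end of the smooth muscle sums and the high end of the macrophage sums, and CFS mouse 69 lies beside the CSA mice for Bmp6 at an endothelial sum of 166.7 FPKM.

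Some genes had nearly the same pattern over the 12 mice as one of the 10. Likeness was the root mean square difference of centred log2(FPKM + 0.1), over 7758 genes with a mean of at least 5 FPKM, for those of the 10 whose group means spanned over 1. Nearest to Bmpr1a were Mid2 (0.0649) and Ids (0.101), and nearest to Smad9 were Fhl1 (0.147) and Arhgap44 (0.217). Nearest to Id1 were Ifrd2 (0.199) and Hoxa6 (0.205), and nearest to Bmp4 were Gxylt2 (0.244) and Bpgm (0.253). Nearest to Bmp6 were Gm48898 (0.280) and AU021092 (0.360), nearest to Bmp2 were Adamts1 (0.283) and Hsph1 (0.312), and nearest to Smad6 were Adamtsl2 (0.3003) and Map3k10 (0.334). The nearest to Grem1, Slfn2 (0.441) and Oas2 (0.477), were farther off. Bmpr2 and Id3 spanned less than 1 and were not matched. The likeness is a description over 12 mice with no test.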

How the data were processed

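RNA was measured in 1 library per mouse, from the abdominal aorta of 12 male mice, with groups and mouse numbers taken from the sample labels, which number the libraries without stating more on the animals, so p-values measure the spread between these libraries. The authors deposited FPKM for 55092 features in 1 table, with 0 columns unused, and the submitters' processing notes name HISAT2 2.0.5, StringTie 1.3.3b, featureCounts 1.5.0-p3 and mm10. The annotation and strand setting are not given in the sources used here. With GENCODE M21 exon lengths, low values (below 100 fragments) were whole to within 0.05 of a fragment in 98.0% to 98.5% of cases, and the recovered fragments summed over all genes served as depth. The deposited values are scaled so that the median log ratio is the same in all libraries.

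Values were tested as log2(FPKM + 0.1) with limma 3.58.1 in R 4.3.3 (lmFit, eBayes with trend and robust), with 1 coefficient per group over 12 libraries, for the 14676 genes that reached 1 FPKM in 3 or more libraries. Benjamini-Hochberg adjustment covered all of them, at a threshold of 0.05, and the study's limit of 1.5 on the absolute log2 fold change is counted beside. FPKM are not counts, so no count model was used. On simulated data for CSA against CFA (13736 genes), 65 of 91 tested genes with a log2 change of 1.5 and 90 of 96 with a change of 3 were recovered, with 7 false calls. The simulation changed 100 genes at each size, with normal noise of the same spread in every group. In the real comparison 40.7% of all genes passed, so these figures do not carry over to it. Tables and figures used matplotlib 3.10.9, numpy 2.4.6 and pandas 2.3.3 under Python 3.11.15.

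The 10 genes, the lists and the tests were chosen with earlier results of these data known. Beside the 10, the text names Ccn2, up to 3 genes of each pathway list with the largest change among those passing in CSA against CFA, defining cell type markers (1 is not reported here) and the 2 genes most like those of the 10 that were matched, and says where it goes further. Alternatives were a pseudocount of 1, no filter, a mean FPKM of at least 5, rescaling to equal FPKM sums, eBayes without trend or robust, array weights, a fit of the compared groups only and leaving out each mouse. Scaling to fragment totals, leaving out CSA mouse 03 with CFS mouse 69, and the lists without CSA mouse 03 were added after seeing the data.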

Additional observations from a re-analysis of the deposited data

Results flagged for a closer look

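For 6 of the 10 genes the effect of genotype under Ang II differed from that under saline by the limma interaction test, each on the log2(FPKM + 0.1) scale. The difference was -1.59 for Bmp4, -3.77 for Bmp6, -1.27 for Bmpr1a, 3.03 for Grem1, -2.62 for Smad6 and -2.60 for Smad9. Each value rests on the same 3 CSA mice, and 26.4% of all tested genes passed this test. Grem1 met the filter on low values only through those mice. With groups of 3, no library was removed as an outlier from the main fit, although distances between libraries were compared.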

How the results depend on the processing

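Of the alternatives for single genes, 732 kept the direction and side of the threshold of the value reported, 10 passed where it had not, 13 no longer passed and 16 changed direction. Leaving out 1 mouse at a time, 5 to 7 of the 10 genes passed for CSA against CFA, 6 to 8 for CSA against CSS and 5 to 6 for the interaction, with 0 in the other comparisons. With all mice, 40.7% of all genes passed for CSA against CFA, 46.2% for CSA against CSS and 26.4% for the interaction. These shares moved with the mouse left out: for CSA against CFA it was 33.2% without CFA mouse 71, and higher without CSA mouse 03, as given above. Leaving out any CSA mouse removes Grem1 from the tests. With a mean FPKM of at least 5, where Smad9, Bmp2 and Grem1 were not tested, 5 genes passed for CSA against CSS, beside 49.6% of all genes in that fit. With array weights 2 passed for CFA against CFS, beside 3.41% of all genes, and direction changed for Id3 (0.52 for CSA against CFA, 0.49 for CSA against CSS, 0.024 for the interaction) and Bmpr2 (-0.011 for CSS against CFS). Over the fits with 1 mouse left out, Id3 ranged from -0.59 to 0.61 for CSA against CFA, from -0.70 to 0.50 for CSA against CSS and from -1.12 to 0.082 for the interaction. For CSS against CFS, Bmp6 ranged from -0.045 to 1.35, Bmpr2 from -0.091 to 0.15 and Bmpr1a from -0.046 to 0.093. Without both CSA mouse 03 and CFS mouse 69, Id3 was 0.61, 0.50 and 0.14 in the 3 comparisons above, and Bmp6 and Bmpr2 were -0.045 and -0.084 for CSS against CFS. Bmpr2 and Id1 no longer passed for CSA against CSS in a fit of those groups only (adjusted p = 0.0856 and 0.0641) or scaled to fragment totals (0.0552 and 0.0559), and each lost the call without single mice, Bmpr2 without CSS mouse 54, CSA mouse 01 or CSA mouse 02 and Id1 without any CSS mouse, as did Grem1 for the interaction without CSS mouse 54, CSS mouse 56 or CFA mouse 71 (0.0516, 0.0518 and 0.0511). Scaling to fragment totals moved the median of all genes for CSA against CFA from -0.037 to 0.12. The causes were not tested. No paired analysis was possible because the groups compared share no mouse numbers. Depth limits Grem1 outside CSA, where it rests on 5 to 78 fragments per library.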
